A study of Mus musculus with 3 samples.

Results

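The endothelial cells of mouse dorsal root ganglia (DRG) were examined in a single-cell RNA library, as 731 barcodes of the 20352 DRG barcodes that had at least 1500 unique molecular identifiers (UMIs, each marking 1 captured transcript). They made up 3.59% of those barcodes (95% Clopper-Pearson interval 3.34% to 3.86%) and 3.10% of all 23566 DRG barcodes, and the 3 libraries of the series held 81584 barcodes. The barcodes were chosen by their own counts: at least 1500 UMIs, a UMI of at least 3 of the 6 endothelial genes Pecam1, Cdh5, Emcn, Flt1, Cldn5 and Tie1, and 0 UMIs of Rbfox3 (a neuronal gene), Ptprc (a leukocyte gene) and Pdgfra (a fibroblast gene). These 9 genes are therefore given only as a description.

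The study addressed the part that sensory nerves and fibroblast growth factor 1 (FGF1) with its receptors play in tendon degeneration. All mice were C57BL/6. The ganglia came from animals injected at 4 weeks of age with 5 µL of AAV-PHP.S-tdTomato, an adeno-associated virus that carries a red fluorescent reporter, delivered to the left Achilles tendon sheath; 18 ganglia (lumbar L4 to sacral S1) of 6 mice were collected 4 weeks later and pooled. The series text gives the injected side only and the sample protocol gives both sides, and one label names a lentivirus. The Achilles tendons of the sham library were taken after the nerve had been exposed surgically, and those of the neurectomy library after the sensory sural nerve had been cut 1 week before immobilisation. Both tendon groups were held in dorsiflexion for 4 weeks, with 5 mice in each. The sources used here do not give the age of the tendon mice. Each group was 1 library, so no difference between groups could be tested, and every interval below is a 95% interval that covers counting error only.

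Blood vessels of peripheral nerve form the blood-nerve barrier: inside the nerve bundle, endothelial cells are joined by tight junctions, take up glucose and amino acids through carriers, and return lipophilic compounds to the blood through efflux pumps. The ganglion is known as a leakier place than the nerve trunk, and some of its vessels are fenestrated. Wnt signalling through beta-catenin maintains barrier endothelium in the central nervous system, whereas Plvap, the protein of fenestral and caveolar diaphragms, marks permeable vessels.

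The DRG library held 239515477 UMIs, the sham library 133570956 and the neurectomy library 79750679, with medians per barcode of 3422, 1065 and 1212. The DRG endothelial barcodes held 7167819 UMIs, with 1500 in the shallowest, 10024 in the median and 26074 in the deepest barcode, and a median of 3460 genes. The same rule selected 1049 of 11295 sham tendon barcodes (9.29%) and 1118 of 9748 neurectomy tendon barcodes (11.5%), with median depths of 2949 and 2809.5 UMIs. Ganglia were digested with papain and enriched on a density gradient and tendons were not, and these steps can set the shares. DRG barcodes shared 189 barcode sequences with the sham and 153 with the neurectomy library, among them 9 and 6 of the endothelial barcodes, and none passed the rule in both. The tendon libraries shared 1001, of which 12 passed the rule in both. The endothelial barcodes held 1 Xist UMI and 2290 UMIs of 4 Y-linked genes in the DRG library, 2531 and 727 in the sham library, and 3707 and 5 in the neurectomy library, so the pools also differed in the sex of the mice. Tissue, treatment, sex, library and the deposited feature table (35980 features in the DRG and 33696 in the tendon libraries) cannot be told apart in any comparison of DRG with tendon.

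Of the selected barcodes, 440 (60.2%) had a UMI of all 6 rule genes, 216 (29.5%) of 5, 56 (7.66%) of 4 and 19 (2.60%) of 3. Just outside were 29 barcodes with 2 of the genes, and 26 with at least 1000 but under 1500 UMIs that otherwise passed, while 30 members had under 2000 UMIs. A further 80 barcodes passed on depth and rule genes and were left out by an excluded gene, 56 of them by Rbfox3. The members with 3 rule genes held Abcb1a, a gene the rule did not use, at 865 UMIs per 1000000 UMIs of the pool (CPM), against 210 in the barcodes with 2 rule genes. Slco1a4 stood at 452 CPM in the former and 0 in the latter, and Sox17 at 320 and 0. Barcodes left out by an excluded gene had a median of 23532 UMIs and held Abcb1a at 340 CPM. The levels of these genes thus dropped at the marker edge and the exclusion edge of the rule. They also differed with the marker count inside it: members with all 6 rule genes held Abcb1a at 2036, Slco1a4 at 624 and Sox17 at 513 CPM.

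RNA of other cell types was measured in the same barcodes. At least 3 of 6 markers of another class were present in 252 members (34.5%), with mural markers in 135, myelinating Schwann cell markers in 75, neuron markers in 63, satellite glia markers in 57, fibroblast markers in 15 and macrophage markers in 1. Summed over its 6 markers, the mural list stood at 641 CPM in the members and 8060 CPM in the DRG barcodes chosen by that list, the Schwann list at 657 and 45470 CPM, the neuron list at 191 and 6610 CPM and the fibroblast list at 156 and 29147 CPM. The satellite glia list stood at 1639 CPM, of which Glul, a glutamine synthetase gene, held 1362 against 603 in the satellite glia barcodes. Only Pdgfra, Ptprc and Rbfox3, the genes excluded by the rule, were at 0 in these 6 lists. Without the 252 barcodes, Abcb1a moved from 1983 to 2166 CPM, Slc2a1 from 222 to 196, Plvap from 189 to 234 and Cldn5 from 1663 to 1807, while the pericyte gene Rgs5 moved from 482 to 78.4. The 4 endothelial genes, of which Cldn5 is a rule gene, thus moved by less than 1.5-fold. Rgs5 is 1 of the 6 mural markers used for the removal, so its larger fall was fixed in part by that step.

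Cldn5 encodes the main claudin of endothelial tight junctions, Abcb1a the efflux pump P-glycoprotein and Slc2a1 the glucose carrier GLUT1. The 250 bases before the annotated starts of these barrier genes are shown as a description. Cldn5 is a rule gene, so the choice of barcodes fixed its level in part. RefSeq sequences on build GRCm38.p6 were matched by symbol for 3 of the 4 barrier genes examined, and Plvap was not among them. All 3 windows lie on the plus strand, written 5′ to 3′, at chr16:18776597-18776846 (Cldn5), chr5:8566841-8567090 (Abcb1a) and chr4:119108495-119108744 (Slc2a1). Capitals mark matches, on either strand, to the TCF/LEF core CTTTGA, the ETS core AGGAAG or the GC box GGGCGG.
Cldn5: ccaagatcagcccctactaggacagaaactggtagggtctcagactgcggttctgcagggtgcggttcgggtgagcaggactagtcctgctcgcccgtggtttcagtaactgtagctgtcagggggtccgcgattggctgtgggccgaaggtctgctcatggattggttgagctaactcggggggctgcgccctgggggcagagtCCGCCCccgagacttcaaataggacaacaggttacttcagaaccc
Abcb1a: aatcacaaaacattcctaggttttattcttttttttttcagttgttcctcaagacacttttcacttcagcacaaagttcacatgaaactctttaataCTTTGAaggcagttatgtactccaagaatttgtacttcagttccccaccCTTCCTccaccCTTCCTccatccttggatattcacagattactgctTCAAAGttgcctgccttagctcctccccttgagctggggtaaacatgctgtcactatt
Slc2a1: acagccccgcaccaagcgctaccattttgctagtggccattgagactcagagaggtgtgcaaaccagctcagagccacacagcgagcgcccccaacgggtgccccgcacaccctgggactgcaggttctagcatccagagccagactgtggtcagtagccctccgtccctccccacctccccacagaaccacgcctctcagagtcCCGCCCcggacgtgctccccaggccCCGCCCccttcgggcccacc
The Abcb1a window held 2 TCF/LEF cores and 2 ETS cores and was 40.4% G or C. The Cldn5 window held 1 GC box (59.6% G or C) and the Slc2a1 window held 2 (66.4%). Of 27018 mouse promoter windows of the same length, 14.0% held the TCF/LEF core, 29.2% the ETS core and 32.9% the GC box, and the motifs do not overlap one another in these windows. A match describes letters and does not show that a factor binds there.

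Within the ganglion, Cldn5, Abcb1a and Plvap were each at their highest level in the endothelial barcodes by a wide margin, and Slc2a1 by a smaller one. The other classes were limited to barcodes with no UMI of Pecam1, Cdh5 and Flt1. Low levels of endothelial genes in these classes were thus fixed in part by that choice. Cldn5, a rule gene, was at 1663 CPM (1633 to 1693) and at most at 1.3 CPM in the other classes; the median member held 13 UMIs and the highest 61. Abcb1a was at 1983 CPM (1950 to 2016), with a median of 18 and a highest count of 74 UMIs. Fibroblasts were the next class at 91.6 CPM, and the remaining classes lay between 1.4 and 3.2. After thinning each barcode to 1500 UMIs, 89.9% of members (87.5% to 92.0%) and 8.75% of fibroblast barcodes had an Abcb1a UMI, against 0.143% to 0.487% of the other classes. Abcb1a, which the rule did not use, was thus found in a larger share of members than Cldn5, which the rule used and which had a UMI in 78.4% of thinned members.

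Slc2a1 and Plvap were found in fewer of the members. Slc2a1 was at 222 CPM (211 to 233), with a median of 1 and a highest count of 24 UMIs, and was shared with satellite glia at 78.7 CPM and fibroblasts at 49.8 CPM. The more numerous satellite glia held more of its UMIs in all, 1939 against 1590 in the members. On thinned counts 22.3% of members (19.3% to 25.5%), 11.4% of satellite glia and 2.02% of neurons had a Slc2a1 UMI. Plvap was at 189 CPM (180 to 200) and at most at 2.41 CPM in the other classes. Its median member had 0 UMIs and its highest 28, and 21.5% of thinned members (18.6% to 24.6%) had a UMI, against 0% to 0.174% in the other classes. Plvap was therefore held by a minority of the endothelial barcodes at this depth and was close to background in the other classes as chosen.

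**Figure D1:**
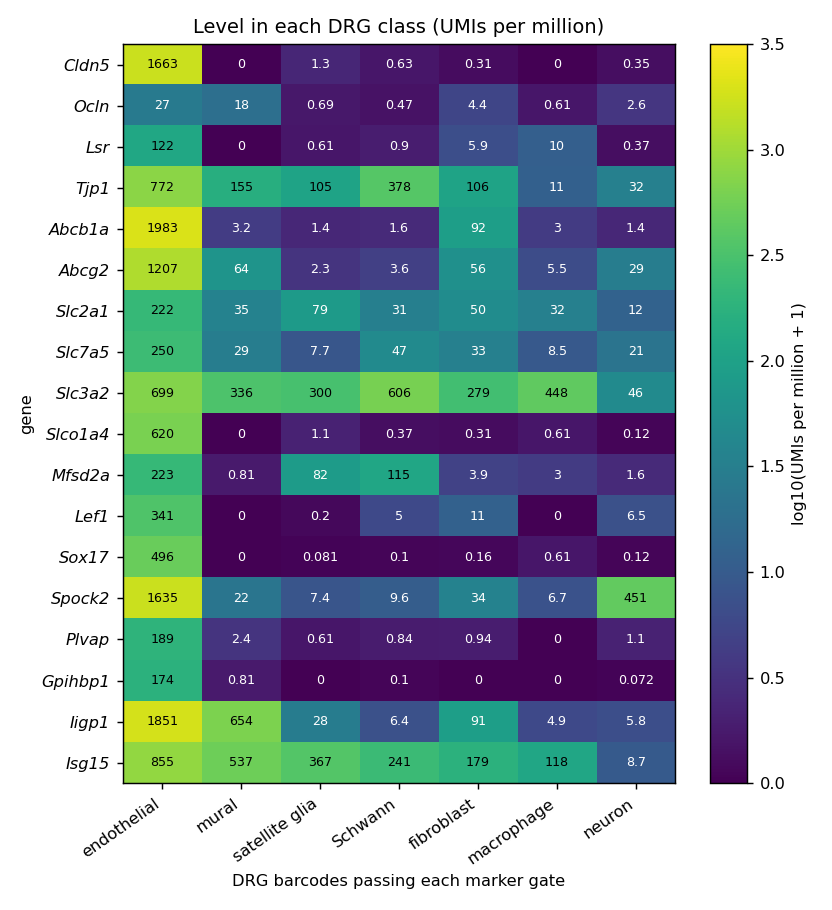
Levels of barrier, transporter, Wnt-related, permeability and interferon genes (rows) in the endothelial barcodes and in 6 other DRG classes chosen by marker lists (columns). The other classes were limited to barcodes with no UMI of Pecam1, Cdh5 and Flt1. Numbers are summed UMIs in CPM and the colour is log10 of that level plus 1; the first column holds 1983 for Abcb1a, against 92 in fibroblasts and at most 3.2 in the other classes.

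Many listed genes were at least 2-fold higher in the members than in all other DRG barcodes, a contrast that the choice of members fixes in part, so the counts are a description. Genes were compared with at least 50 UMIs in both pools together and 10 CPM in the higher pool. Of these, 2342 of 10659 (22.0%) were at least 2-fold higher. Among listed genes these were 18 of 22 measured transporters, 8 of 12 junction genes, 12 of 14 Wnt and barrier factors and 10 of 10 caveolar and permeability genes. The 12 genes with the highest ratio to the next DRG class, the rule genes left out, were Adgrl4, Slco1a4, Sox17, Grrp1, Cyyr1, Prom1, Mmrn2, Clic5, Sox7, Gbp4, Myct1 and Plvap. In this ranking a class with fewer than 3 counts was set at 3, so a class at 0 UMIs could be the next one. Adgrl4, an adhesion G protein-coupled receptor of endothelium, was at 1384 CPM and at 0 UMIs in the mural barcodes. Against that floor of 3 counts its ratio was 573, with a lower limit of 466. Cyyr1 was at 2550 CPM and at 12.9 CPM in fibroblasts, the next class, a ratio of 197 (159 to 247). The limit on Pecam1, Cdh5 and Flt1 in the other classes fixes these ratios in part.

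The endothelium of the ganglion was then set beside that of the tendon, with barcodes that had at least 2 of 5 lymphatic genes left out of every library (11 in DRG, 303 in sham and 356 in neurectomy tendon). The blood endothelial pools held 720, 746 and 762 barcodes and 7084712, 3473931 and 2893117 UMIs. Against sham tendon, 1040 of 9543 genes (10.9%) were at least 2-fold higher in DRG and 2282 (23.9%) at least 2-fold lower. Against neurectomy tendon, 964 of 9564 (10.1%) were higher and 2346 (24.5%) lower. Against both, 856 of 9305 (9.20%) were higher and 1885 (20.3%) lower, and these last 2 shares are the background for the lists below. The tendon comparisons share the DRG pool, so they are not independent.

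The scale of these ratios depends on the normalisation. The median log2 ratio of all tested genes was -0.31 against sham and -0.33 against neurectomy tendon, and a trimmed-mean (TMM) factor raises every log2 ratio by 0.37 and 0.43. With it 1637 genes (17.2%) were higher and 1520 (15.9%) lower than in sham tendon, and 1737 (18.2%) and 1426 (14.9%) than in neurectomy tendon. RNA of other cells also differed between the pools. The 6 fibroblast markers summed to 133 CPM in DRG, 19687 in sham and 12900 in neurectomy tendon, with Pdgfra at 0 in each by the rule. The mural markers summed to 638, 1407 and 1280 CPM, and the Schwann markers to 655, 30.8 and 35.9 CPM. Removing every barcode with at least 3 markers of another class left 475, 104 and 134 barcodes, with fibroblast markers at 10.6, 486 and 898 CPM; ratios in these pools are called ratios without mixed barcodes below.

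Junction genes were mostly within 2-fold of tendon. Cldn5 was at 1668 CPM in the DRG pool, 590 (565 to 616) in sham and 483 (458 to 509) in neurectomy tendon, or 2.83-fold (2.70 to 2.97) and 3.46-fold (3.27 to 3.65) higher in DRG. All 3 pools were chosen in part by Cldn5, and with lymphatic-like barcodes kept its log2 ratio to sham moved from 1.50 to 0.85. Of 13 junction genes measured besides Cldn5, from a list of 18, 3 (23.1%) were higher against both tendons and 1 was lower. The higher ones were Lsr, which builds tricellular junctions, at 123 CPM against 8.92 and 10.0, Jam3 with log2 ratios of 1.09 and 1.46, and the tight junction protein gene Ocln. Ocln rested on 189, 1 and 14 UMIs, and without mixed barcodes its log2 ratio to neurectomy tendon turned from 2.46 to -0.19, on 60 and 10 UMIs. Tjp1, which encodes the scaffold ZO-1, had log2 ratios of 0.71 and 0.82, and Cldn15 was the lower gene at -2.30 and -1.92. Without mixed barcodes 1 of 11 junction genes, Lsr, was past 2-fold, and with TMM 5 of 13 were. The junction list as a whole therefore stood nearer to the background than the transporters did.

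Efflux pumps and carriers were higher in the DRG pool as a list. Of 21 transporters measured from a list of 25, 13 (61.9%) were higher against both tendons and 0 lower, with medians of the log2 ratio of 1.66 and 1.96; with TMM 15 were higher, and without mixed barcodes 11 of 20 were higher and Abcb1b was lower. Abcb1a was at 1998 CPM in DRG, 163 (150 to 177) in sham and 174 (159 to 190) in neurectomy tendon, which is 12.3-fold (11.3 to 13.4) and 11.5-fold (10.5 to 12.6). Abcg2, the efflux pump BCRP, was at 1215, 386 and 312 CPM, with log2 ratios of 1.66 and 1.96. Both major pumps were thus higher in DRG, and without mixed barcodes the log2 ratios of Abcb1a were 3.08 and 2.87. Other efflux genes did not follow: Abcc4 had log2 ratios of 0.29 and 0.50, Abcb1b of -0.78 and -0.91 and Abcc1 of -0.77 and -1.02.

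Carriers for glucose, amino acids, thyroid hormone and lipids followed the pumps. Slc2a1 was at 223 CPM in DRG, 40.6 (34.2 to 47.9) in sham and 33.2 (26.9 to 40.5) in neurectomy tendon, 5.49-fold (4.62 to 6.57) and 6.71-fold (5.46 to 8.34). Slc7a5, the light chain of the large neutral amino acid carrier LAT1, was at 252, 36.0 and 38.7 CPM, and its partner Slc3a2 had log2 ratios of 2.18 and 2.06. Slc7a1, a cationic amino acid carrier, had log2 ratios of 2.55 and 2.15. The carriers with the widest gap were Slco1a4, an organic anion carrier, and Mfsd2a, a carrier of omega-3 lysolipids that restrains transcytosis in brain endothelium. Slco1a4 was at 622 CPM on 4410 UMIs in DRG and at 1.15 and 1.73 CPM on 4 and 5 UMIs in the tendons, ratios of 541 (211 to 1985) and 360 (154 to 1110), or 9.08 and 8.49 on the log2 scale. Without mixed barcodes its log2 ratios were 6.97 (0 UMIs in sham, set against 3 counts) and 6.46. Mfsd2a was at 225 CPM in DRG, with 1 UMI in sham (ratio 782, interval 140 to 30891) and 0 in neurectomy tendon. Against 3 counts the latter ratio was 217, or 7.76 on the log2 scale, with a lower limit of 7.46 on that scale. Within the ganglion Mfsd2a was also held by Schwann cells at 115 CPM and satellite glia at 82.5 CPM. Slco1c1, the thyroid hormone carrier, was at 36.4 CPM in the members and 37.8 in the mural barcodes, and had log2 ratios of 3.82 and 2.82 to the tendon pools. Carriers within 2-fold of both tendons included the taurine carrier Slc6a6 at 0.11 and 0.11 and Slco2b1 at -0.29 and -0.09.

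**Figure D2:**
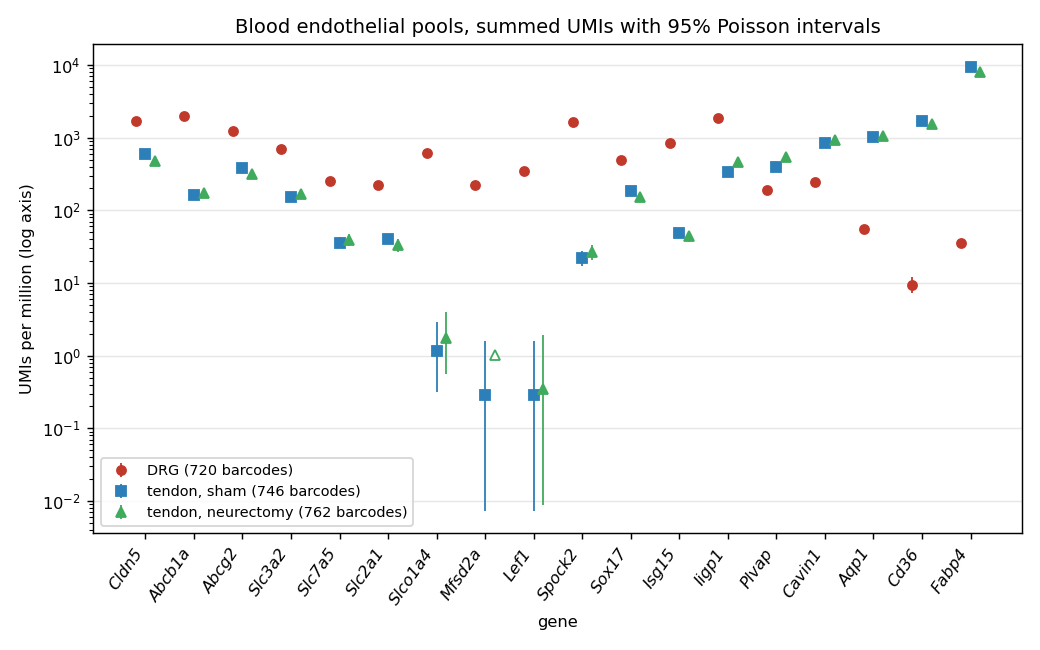
Summed UMIs in CPM (log axis) of 18 genes in the blood endothelial pools of DRG, sham tendon and neurectomy tendon, with 95% Poisson intervals; the open triangle is the level of 3 counts for a gene at 0 UMIs. DRG lies above both tendons from Cldn5 to Iigp1 and below them from Plvap to Fabp4, where the levels are 35.4 CPM in DRG against 9506 and 8127.

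Targets and transcription factors of the Wnt barrier programme were also higher. Of 15 genes measured from a list of 16, 9 (60.0%) were higher against both tendons and 2 lower, with medians of 2.18 and 1.73. Lef1, a transcription factor that binds TCF/LEF cores and is itself a Wnt target, was at 344 CPM on 2438 UMIs and had 1 UMI in each tendon pool, ratios of 1195 (214 to 47237) and 996 (179 to 39339). On the log2 scale these are 10.22 and 9.96. Without mixed barcodes both smaller tendon pools had 0 UMIs, and the log2 ratios set against 3 counts were 6.26 and 6.16. Within the ganglion, 38.4% of thinned members held a Lef1 UMI, against at most 1.70% of another class. Foxf2 and Foxq1, forkhead factors of barrier endothelium, were at 18.1 and 27.9 CPM. Foxf2 had 0 UMIs in both tendons (log2 4.40 and 4.13 against 3 counts) and Foxq1 had 1 and 2. Axin2, a feedback inhibitor of the pathway, had log2 ratios of 3.27 and 2.42. Sox17 was at 496 CPM in the members and had log2 ratios of 1.43 and 1.73. Spock2, a matrix proteoglycan gene, stood at 1646 CPM against 21.9 and 26.6, and was also held by neurons at 451 CPM. Receptor and coreceptor genes were mixed: Fzd4 was at 40.0 CPM in the members against 135 and 155, and Reck, a cofactor for Wnt7, had log2 ratios of -1.46 and -1.15, while Lrp5 had -0.81 and -0.72 and Tspan12 0.54 and 0.59. With TMM only Fzd4 of these was past 2-fold against both tendons.

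Permeability genes were partly lower in the DRG pool. Of 10 caveolar and permeability genes, 0 were higher and 4 (40.0%) lower against both tendons, namely Plvap, Cavin1, Cavin2 and Ehd2, and with TMM 2 (20.0%) were still lower, Cavin1 and Ehd2, against 12.6% of all genes. Plvap was at 189 CPM in DRG, 393 (372 to 414) in sham and 543 (516 to 571) in neurectomy tendon, 2.08-fold (1.93 to 2.24) and 2.87-fold (2.67 to 3.09) lower in DRG. Its log2 ratio to sham of -1.05 moved to -0.68 with TMM, -0.69 with each barcode weighted equally, -0.85 with at least 2 rule genes and -0.35 with lymphatic-like barcodes kept, so its call against sham did not hold under these settings. Against neurectomy tendon -1.52 moved to -0.93 with lymphatic-like barcodes kept. Cavin1, a caveolar coat gene, was at 857 and 925 CPM in the tendons and had log2 ratios of -1.80 and -1.91. Cav1, the caveolin itself, had -0.81 and -0.73 in the full pools.

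Genes of fatty acid and glycerol handling showed the widest gap in the other direction. Of 12 such genes measured from a list of 14, 9 (75.0%) were lower against both tendons and 0 higher, with medians of -3.68 and -3.45, and the same count of 9 was found with TMM. Fabp4, a fatty acid binding protein of peripheral capillaries, was at 35.4 CPM in DRG, 9506 in sham and 8127 in neurectomy tendon, 268-fold (237 to 305) and 229-fold (203 to 261) lower in DRG. Cd36, a fatty acid translocase, was at 9.46, 1674 and 1563 CPM. The water channel Aqp1 had log2 ratios of -4.19 and -4.26, and the glycerol channel Aqp7 had 0 UMIs in the DRG pool against 92.7 and 98.2 CPM. Meox2 and Tcf15, a pair of factors that drive fatty acid uptake in heart endothelium, were at 19.0 and 16.2 CPM in the members against 272 and 177 in sham and 241 and 101 in neurectomy tendon. Without mixed barcodes the log2 ratios of Fabp4 were -7.71 and -7.40 and those of Cd36 -7.91 and -8.04. Fabp4 was at 141 CPM and Cd36 at 89.6 CPM in the other sham barcodes, so both were higher in the tendon endothelium than in the rest of its library.

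Interferon response and class I antigen presentation genes were higher in DRG. Of 18 genes measured against both tendons from a list of 21, 11 (61.1%) were higher and 0 lower, while H2-Aa, H2-Ab1, Cd74 (class II presentation) and the chemokine gene Cxcl9 were 4 of 21 genes measured against sham tendon that were lower than there. The log2 ratios had medians of 1.67 and 1.41 over the genes measured against each tendon; with TMM 16 were higher, and without mixed barcodes 11. Iigp1, an interferon-induced GTPase, was at 1864 CPM in DRG, 338 in sham and 464 in neurectomy tendon, 5.52-fold (5.20 to 5.87) and 4.02-fold (3.80 to 4.25). Isg15, a ubiquitin-like interferon target, was at 857, 48.9 and 43.9 CPM, 17.5-fold (15.0 to 20.5) and 19.5-fold (16.4 to 23.5). These genes were not confined to endothelium in the ganglion: Isg15 was at 537 CPM in mural cells, 367 in satellite glia and 8.7 in neurons, and Iigp1 at 654 in mural cells. Among members Isg15 ranged from 0 UMIs through a median of 6 to 74, and Iigp1 from 0 through 14 to 82. H2-K1, a class I heavy chain, had log2 ratios of 1.72 and 1.20, and its partner B2m of 1.73 and 1.35. Irf1, an interferon-gamma target, was within 2-fold at 0.14 and -0.16.

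**Figure D3:**
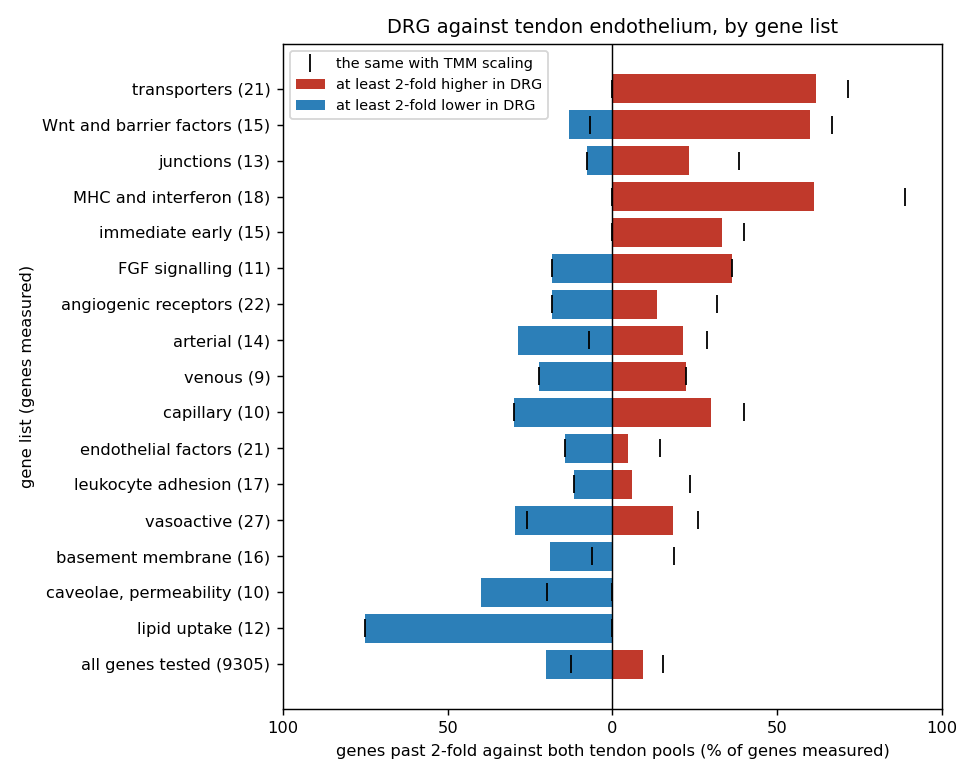
Share of the measured genes of each list that was at least 2-fold higher (red, right) or lower (blue, left) in DRG than in both tendon blood endothelial pools; the axis is a percentage and black ticks show the same share with TMM scaling. Transporters, Wnt and barrier factors and interferon genes reach 60.0% to 61.9% higher and lipid uptake genes 75.0% lower, against 9.20% and 20.3% of all genes.

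Genes of vessel type gave mixed directions. Of 14 arterial genes 3 were higher and 4 lower against both tendons. The Notch ligand Dll4 had log2 ratios of 1.91 and 1.90 and the Notch target Hey1 of 1.98 and 2.21, whereas the arterial genes Sema3g (-1.20 and -1.01) and Vegfc (-2.75 and -2.65) were lower. With TMM 4 of 14 were higher and 1, Vegfc, was lower. Without mixed barcodes 3 of 14 were higher and 5 lower, with Vegfc among the lower ones and Sema3g not. Of 9 venous genes 2 were higher, with Ch25h, a cholesterol hydroxylase gene, at log2 ratios of 3.54 and 3.69, and 2 were lower. Ackr1, the chemokine-binding receptor of venules, was at 5.30 CPM in the members and at 72.7 CPM in the neurons and 36.5 CPM in the Schwann cells of the same library. The ganglion thus held it mainly outside endothelium, but unevenly within it. In cluster 7 of the members, described below, Ackr1 was at 151 CPM, against at most 12.4 in any other cluster. Of 10 capillary genes 3 were higher and 3 lower: the carbonic anhydrase Car4 had 1.22 and 1.46, the apelin receptor Aplnr -2.03 and -2.07, and Timp4 had 0 UMIs in DRG against 379 and 299 CPM.

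Vasoactive genes were split in direction, with both shares above those of all genes. Of 27 measured vasoactive genes 5 (18.5%) were higher and 8 (29.6%) lower, against 9.20% and 20.3% of all genes. With TMM 7 (25.9%) were higher and 7 (25.9%) lower, against 15.5% and 12.6%. Without mixed barcodes 3 of 19 (15.8%) were higher and 4 (21.1%) lower, against 10.3% and 13.9%. Of the neuropeptide receptors in it, Calcrl, the receptor for calcitonin gene-related peptide (CGRP) and adrenomedullin, a peptide pair that dilates vessels, was at 618 CPM in the members against 197 and 248, with log2 ratios of 1.66 and 1.33. Its partners were Ramp2, which gives adrenomedullin binding, at 318 CPM, and Ramp1, which gives CGRP binding, at 2.09 CPM in the members. Tacr1, the substance P receptor, had 1 UMI in the DRG pool and 174 and 136 in the tendon pools, or 0.141 CPM against 50.1 and 47.0. Ace, the angiotensin-converting enzyme, was at 12.6 CPM against 78.0 and 96.4. Calcrl was thus higher than in tendon, and Tacr1 was near 0 in the ganglion endothelium.

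FGF genes were measured because the study concerns FGF1. Of 11 measured from a list of 16, 4 were higher and 2 lower against both tendons, with the same counts under TMM. Without mixed barcodes 6 of 9 were higher and 1 lower, against 10.3% and 13.9% of all genes, with Spry2 and Spred1 added to the higher ones. The 4 higher genes of the full pools were feedback inhibitors and targets of receptor signalling. They were Spry1 (log2 ratios 1.95 and 2.19), Spry4 (1.40 and 1.44), Dusp6 (1.24 and 1.55) and Etv5 (1.55 and 1.50). Of the receptors, Fgfr2 was lower, at 10.6 CPM in the members against 112 and 137, and Fgfr1 had log2 ratios of -0.73 and -1.05, past 2-fold against neurectomy tendon alone. The other lower gene was the ligand Fgf2, at -3.90 and -3.65. Fgf1 itself was at 15.6 CPM in the members, 168 in mural cells, 147 in Schwann cells and 147 in neurons.

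The remaining lists stood closer to the background, apart from the immediate early genes. Of 16 basement membrane genes 0 were higher and 3 lower, among them the perivascular collagen Col15a1 at 9.35 CPM in the members against 227 and 235. With TMM that split turned to 3 higher and 1 lower. Of 17 leukocyte adhesion genes 1 was higher and 2 lower, of 21 endothelial transcription factors 1 (Sox17) was higher and 3 (Meox1, Meox2 and Tcf15) lower, and of 22 angiogenic genes 3 were higher and 4 lower. Immediate early and stress genes, which tissue digestion can induce, were higher for 5 of 15 (33.3%) and lower for 0, against 9.20% and 20.3% of all genes. With TMM 6 of 15 were higher, and without mixed barcodes also 6 of 15, against 15.5% and 10.3% of all genes. Jund had log2 ratios of 1.66 and 1.69. Jund was at 3275 CPM in the members and at 774 to 3469 CPM in the other DRG classes, so its level was not particular to the endothelium. The ganglia and tendons were digested with different enzymes, and the part of digestion in these values was not tested.

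All genes were then ranked by size. Among 490 genes higher against both tendons and at least 2-fold higher in the DRG pool than in other DRG barcodes, the 12 with the highest ratios to sham were Lef1, Mfsd2a, Grm8, Slco1a4, Kcnn2, Slc35f2, Gsg1, Mal, Lancl3, Foxq1, Ocln and Zic2. Grm8, a metabotropic glutamate receptor, was at 180 CPM in DRG with 1 and 0 UMIs in the tendons, and Kcnn2, a calcium-activated potassium channel, was at 180 CPM with 2 UMIs in each. Mal, a myelin and lymphocyte protein gene, was at 454 CPM in the pool and 210 CPM in the other DRG barcodes, which include Schwann cells. Among 312 genes lower against both and at least 2-fold higher in the tendon pool than in other tendon barcodes, the 12 lowest were Timp4, Tacr1, Cd247, Lnx1, Fabp4, Aqp7, Lpl, Slc28a2, Cd36, Spaar, Car3 and AA467197. Timp4, Aqp7, Slc28a2 and Car3 had 0 UMIs in the DRG pool and UMIs in other DRG barcodes, so the features were present in that library.

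The members were not uniform. Gates of small marker lists were applied to counts thinned to 1500 UMIs. An arterial gate, at least 2 of Gja5, Gja4, Sox17, Hey1, Bmx and Sema3g, took 15.9% of members (13.3% to 18.7%), and a venous gate, at least 2 of Nr2f2, Vwf, Ackr1, Selp, Ephb4 and Slc38a5, took 9.17% (7.17% to 11.5%), with 1 barcode in both. A barrier gate, at least 2 of Abcb1a, Slc2a1, Mfsd2a, Slco1a4, Slco1c1 and Lef1, took 76.2% (72.9% to 79.2%), against 1.05% of sham and 0.984% of neurectomy tendon endothelial barcodes. Lef1, Mfsd2a and Slco1a4 of this gate are among the genes ranked highest against sham tendon above. The gate was chosen with earlier results of these data known, so its gap to tendon is a description only. The tendon shares here include the lymphatic-like barcodes, 303 in sham and 356 in neurectomy tendon. In the ganglion the barrier gate covered most members. The shares depend on depth: the venous gate took 53.4% and the arterial gate 60.9% without thinning. A lymphatic gate took 0.821% of members, 25.0% of sham and 27.1% of neurectomy barcodes.

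**Figure D4:**
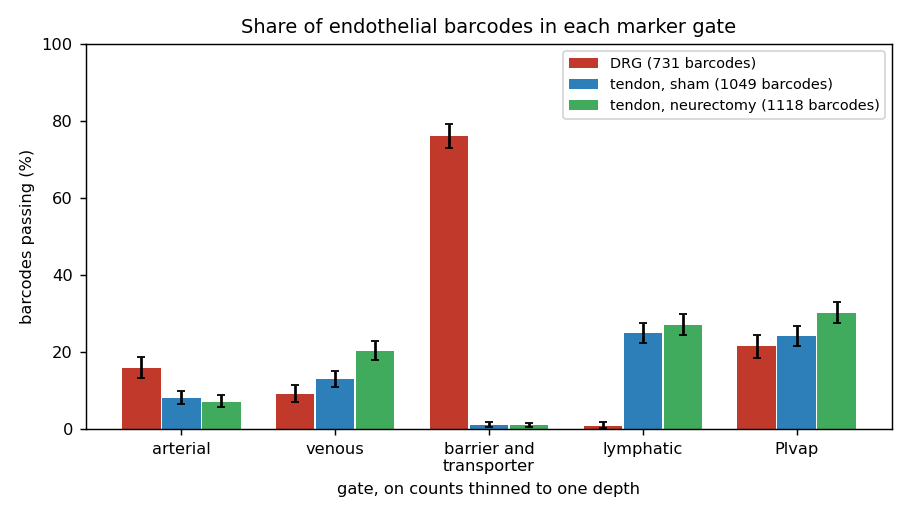
Share of endothelial barcodes passing each marker gate on counts thinned to 1500 UMIs (axis in percent from 0 to 100), for 731 DRG, 1049 sham and 1118 neurectomy tendon barcodes, with 95% Clopper-Pearson intervals. Lymphatic-like barcodes are included in each library. The barrier and transporter gate reaches 76.2% in DRG and 1.05% and 0.984% in the tendons, and the Plvap gate lies between 21.5% and 30.2% in the 3 libraries.

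Plvap and the barrier genes were found in partly different members. A Plvap UMI was present in 15.1% of the members in the barrier gate and in 42.0% of the others, in 8.62% of arterial and in 41.8% of venous members. Still, 53.5% of the Plvap members passed the barrier gate. The 157 members with a thinned Plvap UMI (median 8148 UMIs) were compared with the 574 without (median 10387), over 8389 genes, of which 67 (0.799%) were at least 2-fold higher and 300 (3.58%) lower. Slc2a1 was at 82.5 CPM (67.8 to 99.4) in the members with Plvap and 254 (241 to 267) in those without, 3.07-fold lower. Slco1c1 was at 2.25 and 44.2 CPM, Foxq1 at 6.75 and 32.7 and Foxf2 at 4.50 and 21.3. In contrast, Abcb1a was at 1790 and 2027 CPM and Abcg2 at 1254 and 1197, a difference of less than 1.5-fold in either. Of 21 transporters 3 were at least 2-fold lower in the Plvap members (Slc2a1, Slco1c1 and Slc19a3) and 0 higher. Of 8 venous genes 2 were higher there (Selp, the P-selectin gene, at 255 and 61.5 CPM, and Lrg1), and of 16 leukocyte adhesion genes 2 were higher (Selp and Sele) and 1 lower. Of 5 lymphatic genes 2 were higher (Prox1, at 42.0 and 14.2 CPM, and Mmrn1) and 1 lower. Cluster 7, described below, weighs on these values. Of its 31 members 71.0% were in the Plvap gate, and it held Selp at 3154 and Sele at 2558 CPM, against at most 447 and 169 in any other cluster. The split is not one of presence and absence. Members without a thinned Plvap UMI still held Plvap at 93.4 CPM, against 610 in those with one, and 364 members had a Plvap UMI without thinning. Members with a thinned Plvap UMI therefore held the efflux pumps at near the level of the rest and GLUT1 at a lower one. Markers of other cells moved with this split: all 6 mural markers stood lower in the members with Plvap, among them Rgs5 at 219 and 542 CPM and Abcc9 at 22.5 and 55.2, and the fibroblast gene Dcn stood at 15.0 and 98.7. Slc2a1 was at 272 CPM in members with at least 3 mural markers and 205 in the others, and the part of mural RNA in the split was not tested.

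Members in the venous gate alone (66, median 6800 UMIs) and in the arterial gate alone (115, median 11092) differed in the same genes. Slc2a1 was at 132 CPM in the venous and 295 in the arterial members, Plvap at 397 and 90.6, and Abcb1a at 1601 and 2072. Fabp4 was at 403 and 0.824 CPM, and Ptgs2, an inducible cyclooxygenase gene, at 270 and 2.47. A few members carried these venous values: 1 barcode held 115 of the 251 Fabp4 UMIs of all members, and in the clusters described next cluster 7, with 20 members in the venous gate, held Fabp4 at 1728 CPM and Ptgs2 at 1275, against at most 22.8 and 60.1 in any other cluster.

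Clustering of the members on 2000 variable genes, a step chosen after the data had been seen, gave 13 clusters, which are described by number, with no test, since the same genes made them. Cluster 2 (93 members) led with Sema3c, Foxq1, Slco1c1 and Slc2a1 and held Slc2a1 at 505 CPM and Plvap at 17.1, with 0% in the Plvap gate. Cluster 0 (124 members) held Gpihbp1, the lipase anchor, at 322 CPM and Plvap at 330, with Slc2a1 at 62.2, and cluster 6 (47 members) held Selp at 447, Plvap at 313 and Slc2a1 at 63.9. Abcb1a stood at 2390, 2162 and 1912 CPM in clusters 2, 0 and 6. Between these 3 clusters Slc2a1 and Plvap therefore differed more than Abcb1a did. Cluster 11 (24 members) led with Dkk2, Nebl, Alpl and Fbln5, with 54.2% in the arterial gate.

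Cluster 7 stood apart from the rest. Its 31 members had a median of 3509 UMIs and led with the selectin genes Selp (3154 CPM) and Sele (2558), Fabp4 (1728) and Ptgs2 (1275), with Plvap at 1004 CPM and the lymphatic factor gene Prox1 at 453. The cluster was partly lymphatic-like: it held 5 of the 6 members in the lymphatic gate, which were 16.1% of its members. The lymphatic genes Mmrn1 and Lyve1 stood at 317 and 196 CPM, against at most 37.1 and 35.4 in any other cluster. Pdpn stood at 83.0 CPM, below the 168 of cluster 10, and Ccl21a at 0. Abcb1a was at 438 CPM, Cldn5 at 257, Spock2 at 7.55, and Mfsd2a and Lef1 at 0, and 12.9% of these members passed the barrier gate against 76.2% of all. Other clusters held genes or markers of other cell types: cluster 1 (106) and cluster 9 (30) with Rgs5, in which 82.1% and 100% of members had at least 3 mural markers, cluster 5 (48), in which 93.8% had at least 3 Schwann markers, cluster 10 (30) with Fabp7, cluster 4 (63) with neuronal genes such as Syt4, and cluster 12 (16) with erythroid genes. Cluster 9 held Slc2a1 at 580 and Slco1a4 at 1215 CPM with Plvap at 4.83. Whether such barcodes hold 2 cells or free RNA was not tested.

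**Figure D5:**
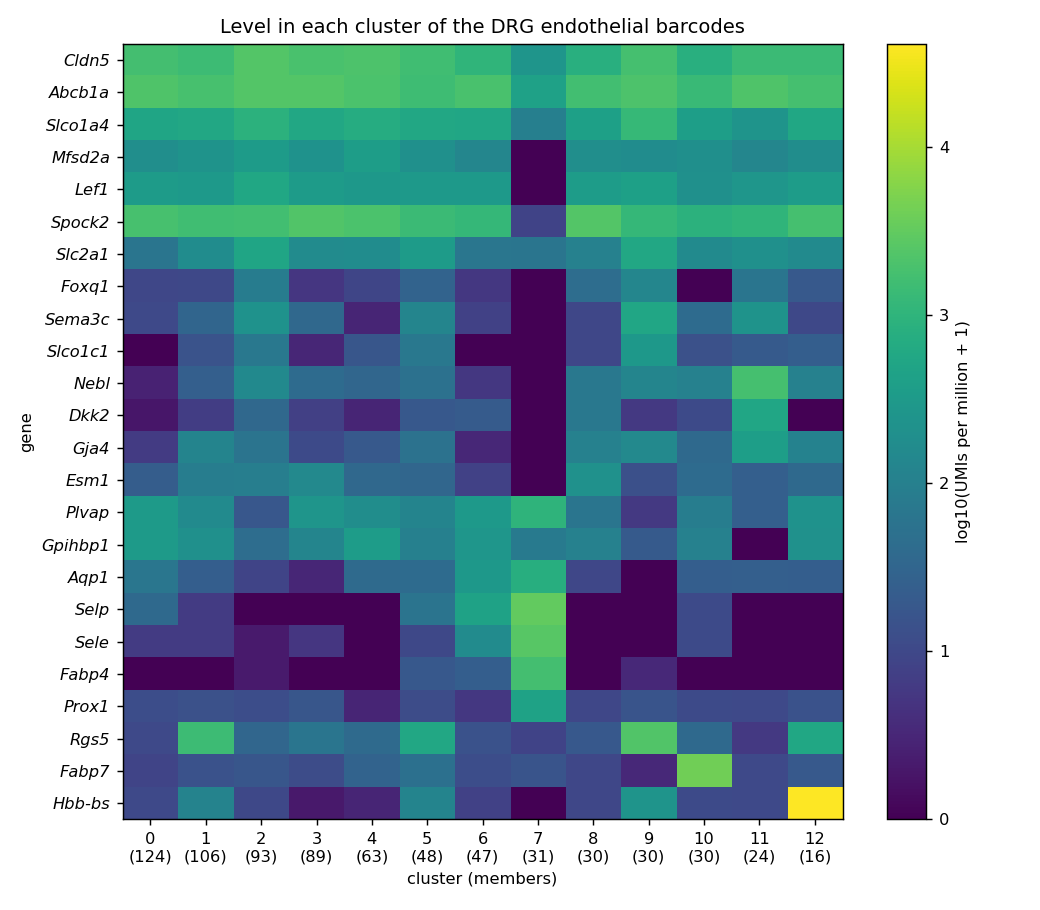
Levels of selected genes (rows) in the 13 clusters of DRG endothelial barcodes (columns, with the number of members in brackets); colour is log10 of the level in CPM plus 1. Cluster 7 holds 0 UMIs of Mfsd2a and Lef1 and holds the highest Selp (3154 CPM) of the clusters shown, cluster 2 pairs high Slc2a1 (505) with low Plvap (17.1), and clusters 1, 9, 10 and 12 hold Rgs5, Fabp7 or Hbb-bs.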

How the data were processed

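The values deposited by the authors were raw UMI counts for each gene in each barcode, written by Cell Ranger 8.0.1, per the file headers. The submitters' processing notes name both mm10 and GRCm39 but tie neither to a library, and no coordinates were taken from the counts. The rule was applied to barcodes as deposited, with no limit on mitochondrial UMIs. Tendon and DRG symbols were matched directly, and 871 through RefSeq synonyms.

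Counts were summed over barcodes and scaled to a pool total of 1000000 (CPM). A gene was compared where both pools together had 50 UMIs or more and the higher pool had 10 CPM or more. It was called past 2-fold. Intervals are exact (95% Poisson for levels, conditional binomial for ratios, Clopper-Pearson for shares), a level of 0 was set against 3 counts, and with 1 library per group no test was made. The pooled mice do not enter as replicates. The other DRG classes needed 1500 UMIs, at least 3 of 6 markers with no tie between lists, and no UMI of Pecam1, Cdh5 and Flt1. The members, lists and gates were chosen with earlier results of these data known. Genes named were those of the lists, the 12 with the highest ratio to the next DRG class (50 CPM or more), and the 12 highest and 12 lowest against sham that were past 2-fold against both tendons and enriched in the endothelium of the higher library; mitochondrial, ribosomal, haemoglobin, sex-linked and unnamed genes were left out.

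Scrublet in scanpy 1.11.5 called 2.21% of DRG barcodes (6.16% of members) and 0% in both tendon libraries, where it has therefore not worked; doublets were kept. The median DRG endothelial barcode had 10024 UMIs, which limits values per barcode for low genes. Clusters used log-scaled counts (10000 per barcode), 30 components, 15 neighbours and Leiden resolution 1 (leidenalg 0.10.2). Promoter windows came from RefSeq. Scripts ran in Python 3.11.15 with numpy 2.4.6, scipy 1.17.1 and pandas 2.3.3, and the counting steps were tested on simulated data. Alternatives were other depth, marker and exclusion limits, doublet removal, removal of barcodes with other classes' markers, equal weights per barcode, TMM scaling, lymphatic-like barcodes kept, other expression filters and other thinning depths.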

Additional observations from a re-analysis of the deposited data

How the results depend on the processing

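Of the counts, shares of members and gate shares, most moves came with filters, exclusion rules and scaling. Without exclusion genes, 1661 genes were higher in DRG than in sham and 1606 than in neurectomy tendon. With barcodes holding at least 3 markers of another class removed, 479 members remained, and 1475 and 1506 genes were lower than in sham and neurectomy tendon. With TMM, 1637 were higher and 1520 lower than in sham tendon, and 1737 and 1426 than in neurectomy tendon. With at least 50 CPM required, 1532 genes were higher in the members than in other DRG barcodes, 633 higher and 744 lower than in sham, and 601 higher and 804 lower than in neurectomy tendon; with no filter other than 1 UMI these were 13154, 1882, 6350, 1707 and 6519. The gate shares thinned to 3000 UMIs (641 members, 90 left out), not thinned, and with at least 3 gate genes were 33.4%, 60.9% and 2.87% for the arterial gate, 21.8%, 53.4% and 2.46% for the venous gate and 91.9%, 94.4% and 42.0% for the barrier gate, and 31.0% and 49.8% for Plvap under the first 2 settings. Of 672 gene ratios under 12 settings, 15 crossed 2-fold, in 7 of 56 results, 231 fell outside their counting interval (44 of 56 without mixed barcodes and 35 of 56 with TMM), and 1 reversed: Ocln against neurectomy tendon at -0.19 without mixed barcodes. Tfrc, the transferrin receptor gene, crossed against sham, from 1.01 to 0.98, 0.98 and 0.90. The cause of these moves was not tested. No paired analysis was possible because each group was 1 library. At 2893117 UMIs in the smallest pool, a gene at 0 UMIs was set against the level of 3 counts, and low genes such as Foxf2 and Ocln are limited by depth.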

Other observations

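The viral reporter was hardly found in the endothelium. Of 4 vector features in the DRG library 1 had UMIs; the members held 2 UMIs in 2 barcodes, a level of 0.279 CPM (95% Poisson interval 0.0338 to 1.01), and the neurons held 10181 UMIs in 303 barcodes, or 73.8 CPM. The fibroblast barcodes were at 34.3 CPM and the mural barcodes at 0 UMIs, which allows up to 2.97 CPM. How much of the endothelial value was free RNA was not tested.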
